A study of Homo sapiens with 8 samples.

Results

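The 7 integrin genes described here encode collagen- and laminin-binding subunits of the integrin family. These are ITGA1, ITGA2, ITGA10 and ITGA11 for collagen, and ITGA3, ITGA6 and ITGB4 for laminin. They were taken by name, as the 7 of 50006 listed genes that carry these symbols. All 7 passed the filter on low counts, ITGA10 with 13 to 29 counts per library. Integrins are heterodimers of an alpha and a beta subunit that bind the matrix outside the cell and link it to the cytoskeleton inside. The 4 collagen-binding alpha subunits share an inserted domain that holds the collagen site, and all pair with the beta subunit ITGB1. ITGA3 also pairs with ITGB1, whereas ITGA6 pairs with either ITGB1 or ITGB4. The dimer of ITGA6 and ITGB4 is the core of the hemidesmosome, which anchors the keratin filaments of basal epithelial cells to laminin in the basement membrane.

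The sequenced RNA came from BEAS-2B, a line of human bronchial epithelium that was immortalised and has a wild-type genotype by the labels, grown in serum-free LHC-9 medium. The series set out to profile transcripts related to adhesion after 4 h of exposure. The 4 groups of 2 libraries were Mock (PBS, no protein), FBG (fibrinogen), M1-FCP (an FCP preparation that the labels derive from Der m 1) and αC (the fibrinogen αC domain), with each of the 3 proteins at 4 ng/µl. Der m 1 is a group 1 allergen of the dust mite Dermatophagoides microceras. The labels do not expand FCP, and the preparation of αC is not described in the labels. The labels give this line for every group, and whether the 4 groups held the same cells was not tested. Replicates 1 and 2 of a group are called biological in the labels, which do not say whether these were separate cultures or days, so p-values measure only the spread between these libraries.

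The libraries held 15137196 to 22258791 counts, and 3 counts corresponded to 0.135 to 0.198 CPM (counts scaled to library size). These limits cover counting error only. The M1-FCP and αC libraries stood apart from the Mock and FBG libraries over the whole transcriptome. Of 16307 genes tested, 4651 (28.5%) were called at 2-fold or more in M1-FCP against Mock, whereas 65 (0.399%) were in αC against M1-FCP. Markers of epithelium and of mesenchyme followed the same division. The 12 epithelial markers, among them CDH1 and EPCAM, summed to 956 to 963 CPM in Mock, 806 to 818 in FBG, 3448 to 3491 in M1-FCP and 3381 to 3451 in αC. The keratin genes KRT8 and KRT18 made up most of this sum in Mock (502 and 446 CPM on average) and FBG (428 and 358 CPM). Another keratin gene, KRT5, was its largest part in M1-FCP (1580 CPM) and αC (1602 CPM), from 2.03 CPM in Mock and 7.27 in FBG. In FBG against Mock the sum was lower, but 6 of the 11 tested epithelial markers were called higher and 3 lower, with a median log2 fold change of 1.00. In Mock, GRHL2 and CLDN7 were at 0, and TP63, ESRP1 and CLDN4 had at most 3 counts in each library, so these defining epithelial genes of the labelled cell type were at or near 0 there. In FBG, TP63 and CLDN7 had at most 3 counts in each library. The 12 mesenchymal markers, among them VIM and COL1A1, summed to 3532 to 3553 CPM in Mock, 2216 to 2230 in FBG, 645 to 648 in M1-FCP and 628 to 635 in αC. COL1A1 was the largest part of this sum in Mock (2153 CPM on average) and FBG (1087 CPM). VIM was its largest part in M1-FCP (343 CPM) and αC (318 CPM). In FBG against Mock, 7 of the 11 tested mesenchymal markers were called lower and 2 higher. COL3A1 was at 0 in every library. Of the tested epithelial markers, 11 of 11 were higher in M1-FCP and in αC than in Mock, and 8 and 9 of 11 mesenchymal markers were lower. Over all genes tested, 37.3% and 38% were higher there, and 36.1% and 36.7% lower. The 6 endothelial markers summed to at most 4.35 CPM, and the 8 blood and immune markers to at most 34.6 CPM, with PTPRC, CD3E, LYZ, HBB and FCGR3A at no more than 3 counts in any library. The part of this division in the integrin results was not tested. In these bulk libraries, fewer cells of a type and less RNA per cell cannot be told apart.

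The promoters of the 3 members with the largest changes (ITGA2, ITGA6 and ITGA11, described below by group) are printed first. RefSeq promoter sequences in GRCh38.p14 matched 5 of the 7 members. ITGA3 and ITGB4 had no match. Each run below is the 250 bases before the gene's start, read in the direction of transcription: ITGA2 at chr5:52989102-52989351 on the + strand, ITGA6 at chr2:172427086-172427335 on the + strand and ITGA11 at chr15:68432164-68432413 on the - strand. Capitals mark the GC box GGGCGG and the E-box CAGGTG on either strand.
ITGA2: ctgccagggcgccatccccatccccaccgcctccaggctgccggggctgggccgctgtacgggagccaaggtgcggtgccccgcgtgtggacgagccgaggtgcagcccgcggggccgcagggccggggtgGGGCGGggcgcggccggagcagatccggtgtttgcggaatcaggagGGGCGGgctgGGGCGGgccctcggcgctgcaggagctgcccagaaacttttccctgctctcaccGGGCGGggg
ITGA6: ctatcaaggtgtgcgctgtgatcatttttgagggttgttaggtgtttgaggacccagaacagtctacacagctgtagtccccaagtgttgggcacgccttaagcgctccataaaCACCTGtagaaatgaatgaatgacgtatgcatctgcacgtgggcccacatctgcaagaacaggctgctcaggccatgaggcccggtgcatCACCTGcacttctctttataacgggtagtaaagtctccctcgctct
ITGA11: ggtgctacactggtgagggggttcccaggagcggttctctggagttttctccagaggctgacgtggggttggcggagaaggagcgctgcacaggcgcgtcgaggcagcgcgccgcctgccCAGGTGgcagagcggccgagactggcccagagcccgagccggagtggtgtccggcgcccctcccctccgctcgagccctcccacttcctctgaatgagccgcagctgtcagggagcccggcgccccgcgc
The ITGA2 window held 4 GC boxes and no CAGGTG, in 76.4% G and C, against a median of 58.0% over 35116 promoter windows of the same length. The ITGA6 window held 2 matches to CAGGTG and no GC box, in 50.8% G and C. It also held 1 TATAAA on the opposite strand only, printed above as tttata. A second annotated ITGA6 start, at base 172427586 of chromosome 2, had 3 GC boxes and no CAGGTG in its own window. The ITGA11 window held 1 CAGGTG and no GC box, in 71.2% G and C. Of all windows, 42.6% held GGGCGG, 17.5% held CAGGTG, the form of E-box bound by ZEB and SNAIL repressors, and 10.7% held TATAAA. Letters of the AP-1 site (TGANTCA, 6.57% of windows), of the CCAAT box (CCAAT, 32.0%) and of a grainyhead site (AACNGGTT, 1.49%) were searched on both strands too and matched in none of the 3 printed windows. The general E-box CANNTG, of which CAGGTG is a special case, matched at 7 positions for ITGA6, 2 for ITGA11 and none for ITGA2, and in 61.8% of all windows. These matches are letters and not measured sites.

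The per-length order of the subunits differed between the 2 pairs of groups. Genes are compared here by counts per kilobase of exon scaled to the same total in each library (TPM), as group means. In Mock, ITGA3 stood highest of the members at 723 ± 2.04 TPM (SD, n = 2), followed by ITGB4 at 269, ITGA11 at 30.0, ITGA6 at 26.3, ITGA1 at 2.59, ITGA2 at 1.70 and ITGA10 at 0.662. FBG kept this order, with ITGA3 at 520 TPM, ITGB4 at 297, ITGA11 at 44.4, ITGA6 at 25.9, ITGA1 at 6.09, ITGA2 at 2.68 and ITGA10 at 0.614. In M1-FCP the order was ITGA3 at 1080.4 TPM, ITGB4 at 966, ITGA6 at 154, ITGA2 at 24.9, ITGA1 at 5.56, ITGA11 at 2.93 and ITGA10 at 0.731. αC had the order of M1-FCP, with ITGA3 at 1096 TPM, ITGB4 at 972, ITGA6 at 142, ITGA2 at 26.7, ITGA1 at 6.23, ITGA11 at 3.21 and ITGA10 at 0.666. ITGA11 thus stood above ITGA6, ITGA1 and ITGA2 in Mock and FBG and below all of them in M1-FCP and αC, where ITGA2 stood above ITGA1. No neighbours in any of these orders overlapped between libraries. The common partner ITGB1 stood above every member in Mock (822 TPM) and FBG (965 TPM), and below ITGA3 and ITGB4 in M1-FCP (850 TPM) and αC (810 TPM).

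**Figure D1:**
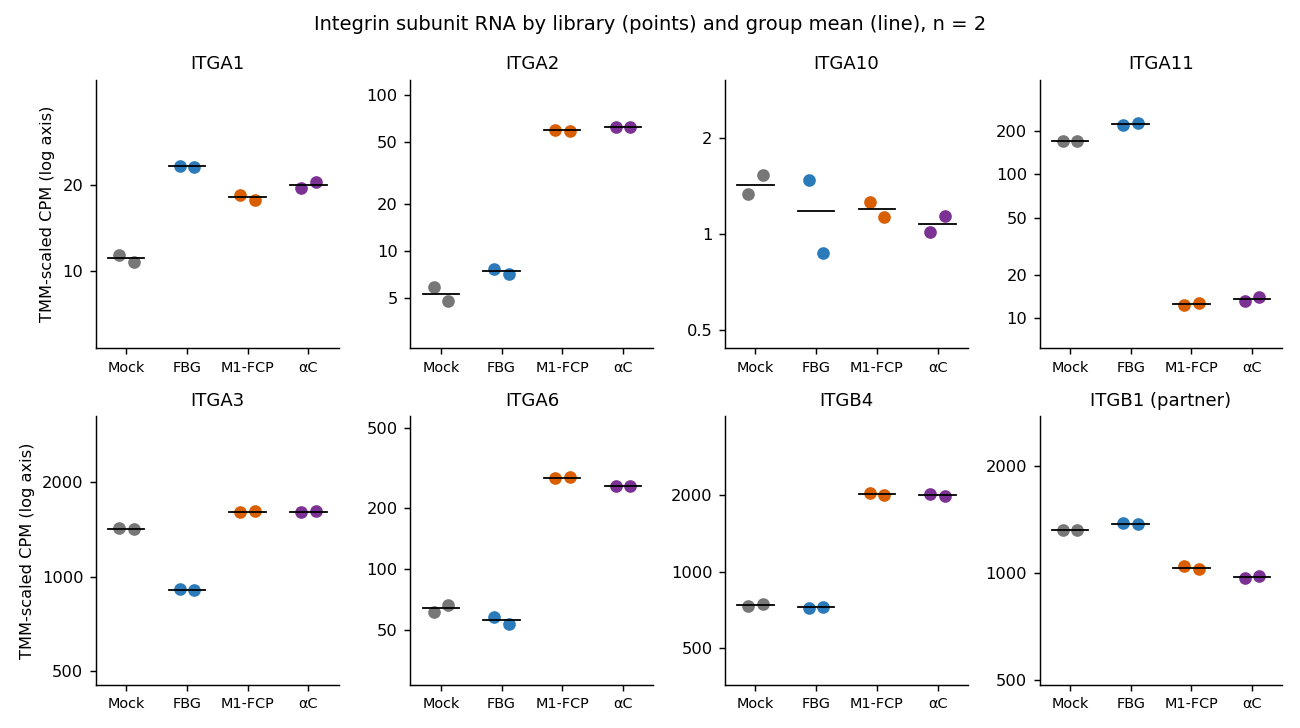
Level of each member and of the partner ITGB1 in CPM scaled by TMM (vertical, log axis, a different range in each panel) in the 2 libraries of each group, with the group mean as a line. ITGA2, ITGA6 and ITGB4 sit higher, and ITGA11 lower, in all 4 M1-FCP and αC libraries than in all 4 Mock and FBG libraries.

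Against Mock, 6 of the 7 members were called in M1-FCP, 5 higher and 1 lower, and the same split was found in αC. Calls are adjusted p-values under 0.05 from edgeR's quasi-likelihood test with Benjamini-Hochberg adjustment over all 16307 genes. The background was high: 73.4% of all genes tested were called in M1-FCP against Mock (37.3% higher, 36.1% lower) and 74.7% in αC against Mock (38% higher, 36.7% lower). At 2-fold or more, 4 of 7 members were called in each, with ITGA2, ITGA6 and ITGB4 higher and ITGA11 lower, where the background was 28.5% (19.7% higher, 8.85% lower) and 29.7% (20.7% higher, 8.96% lower). FBG against Mock called 5 of 7 (3 higher, 2 lower) with a background of 50.4% (24.2% higher, 26.3% lower), and 1 of 7 at 2-fold, ITGA1, with a background of 6.9%. Against FBG, 6 of 7 were called in M1-FCP (background 66.8%) and in αC (background 68.3%), and 4 of 7 in each at 2-fold (backgrounds 20.7% and 22.6%). The 3 comparisons with Mock share its libraries, and the 2 with FBG share those of FBG. Median log2 fold changes of the members were -0.03 in FBG, 0.70 in M1-FCP and 0.85 in αC, beside 0.02, 0.06 and 0.06 over all genes. Levels across groups are given below in CPM scaled by TMM, which corrects each library for its composition, and fold changes come from the fit on the same scale, with approximate standard errors (SE).

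**Figure D2:**
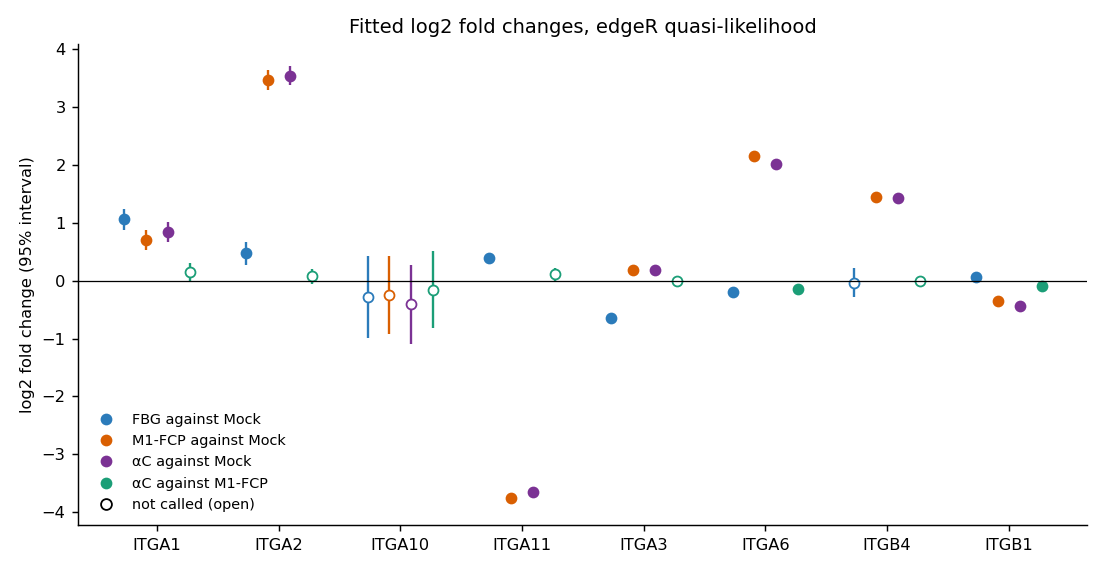
Fitted log2 fold change (vertical) of each member and of ITGB1 in 4 comparisons (colours), with 95% intervals as bars, some shorter than the points. Open points were not called. ITGA2 and ITGA11 lie furthest from 0, at 3.47 and -3.75 in M1-FCP against Mock.

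ITGA2 and ITGA11 moved in opposite directions and by the widest margins of the 7. ITGA2 (chr5:52989352-53094779, + strand), the alpha subunit of a collagen receptor of epithelial cells and platelets, measured 5.93 and 4.79 CPM in Mock, 7.74 and 7.20 in FBG, 60.0 and 59.0 in M1-FCP and 62.9 and 62.7 in αC. All 4 M1-FCP and αC libraries stood far above the rest, and FBG lay above Mock without overlap. The log2 fold change against Mock was 3.47 ± 0.08 in M1-FCP (SE, adjusted p = 1.88e-20), an 11.1-fold rise, and 3.55 ± 0.08 in αC (adjusted p = 1.11e-20), an 11.7-fold rise. Against FBG it was 2.99 ± 0.08 in M1-FCP and 3.07 ± 0.08 in αC. In FBG against Mock ITGA2 rose by 0.48 ± 0.10 (adjusted p = 0.00338), from 161 counts summed over the 2 Mock libraries, for which the counting error alone is 0.15. That FBG call was lost when trends with GC content and length were removed (0.16, adjusted p = 0.382) and without Mock replicate 2 (0.33, adjusted p = 0.128).

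ITGA11 (chr15:68296532-68432163, - strand), the alpha subunit of a fibrillar collagen receptor best known from fibroblasts, measured 170 and 172 CPM in Mock, 220 and 227 in FBG, 12.4 and 12.8 in M1-FCP and 13.1 and 14.2 in αC. The FBG libraries were the highest, and the M1-FCP and αC libraries overlapped neither of the other groups. Against Mock the gene fell by 3.75 ± 0.04 on the log2 scale in M1-FCP (adjusted p = 4.61e-26), which is 13.5-fold lower, and by 3.64 ± 0.04 in αC (adjusted p = 4.81e-26), 12.5-fold lower. Against FBG the falls were wider, 17.7-fold in M1-FCP and 16.4-fold in αC. In FBG against Mock ITGA11 was 0.39 ± 0.03 higher (adjusted p = 5.29e-10). The summed mesenchymal markers, of which COL1A1 was the largest part, were below Mock in the same FBG libraries, as given above. Of the 11 tested mesenchymal markers, 7 were called lower and 2 higher there. The 4 comparisons of M1-FCP or αC with Mock or FBG kept their call and direction for ITGA2 and ITGA11 under every setting tried.

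ITGA1 (chr5:52787916-52959209, + strand), a receptor subunit with a preference for the collagens of basement membranes, measured 11.4 and 10.8 CPM in Mock, 23.2 and 23.1 in FBG, 18.5 and 17.7 in M1-FCP and 19.5 and 20.4 in αC. Mock was lowest and FBG highest, with no overlap between any 2 groups. It rose by 1.06 ± 0.08 in FBG (adjusted p = 4.01e-10), 0.70 ± 0.08 in M1-FCP (adjusted p = 1.10e-07) and 0.85 ± 0.08 in αC (adjusted p = 4.95e-09). FBG was the higher of each pair in M1-FCP against FBG (-0.36 ± 0.08, adjusted p = 0.000481) and αC against FBG (-0.21 ± 0.08, adjusted p = 0.0226). ITGA1 transcripts are poor in G and C (38.8%, beside a median of 48.3% over genes tested), and fold changes fell with GC content across 14321 genes in FBG against Mock (Spearman -0.41) and in M1-FCP against Mock (-0.28). With trends in GC content and length removed, ITGA1 was 0.63 higher in FBG, 0.08 in M1-FCP (adjusted p = 0.463, no longer called) and 0.23 in αC. The αC against FBG call was also lost when libraries were scaled by size only (-0.10, adjusted p = 0.285), with no filter (-0.20), with DESeq2 (-0.19), and without FBG replicate 1 (-0.22, adjusted p = 0.0652), FBG replicate 2 (-0.23, adjusted p = 0.0536) or αC replicate 1 (-0.18, adjusted p = 0.139). ITGA1 and PELO share a start and 499 exonic bases in the annotation, and reads there cannot be assigned to either.

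ITGA10 (chr1:145891208-145910050, - strand), a collagen receptor subunit known from cartilage, was close to the limit of detection, at 1.33 and 1.53 CPM in Mock, 1.48 and 0.875 in FBG, 1.27 and 1.13 in M1-FCP and 1.01 and 1.14 in αC. FBG overlapped every other group and M1-FCP overlapped αC, while both Mock libraries lay above those of M1-FCP and αC. ITGA10 was called in none of the 6 comparisons. The 95% interval of its log2 fold change ran from -0.93 to 0.42 in M1-FCP against Mock and from -1.09 to 0.27 in αC against Mock.

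Set beside each other per kilobase, the collagen-binding subunits changed their make-up. ITGA11 made up 85.8% ± 0.810 (SD, n = 2) of the summed level of the 4 genes in Mock and 82.5% ± 0.911 in FBG, but 8.59% ± 0.295 in M1-FCP and 8.74% ± 0.370 in αC. ITGA2 made up 4.87% ± 0.723 in Mock, 4.98% ± 0.309 in FBG, 73.0% ± 0.144 in M1-FCP and 72.5% ± 0.912 in αC. ITGA1 held an intermediate share, 7.39% ± 0.276 in Mock, 11.3% ± 0.173 in FBG, 16.3% ± 0.300 in M1-FCP and 16.9% ± 0.410 in αC. ITGA10 was between 1.15% and 2.14% in every group. The leading collagen-binding subunit was thus ITGA11 in every Mock and FBG library and ITGA2 in every M1-FCP and αC library. These shares depend on the exonic lengths in the files, which for ITGA11 is 14.223 kb. By raw counts the same genes led, with ITGA11 at 90.5% in Mock and ITGA2 at 65.1% in M1-FCP.

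**Figure D3:**
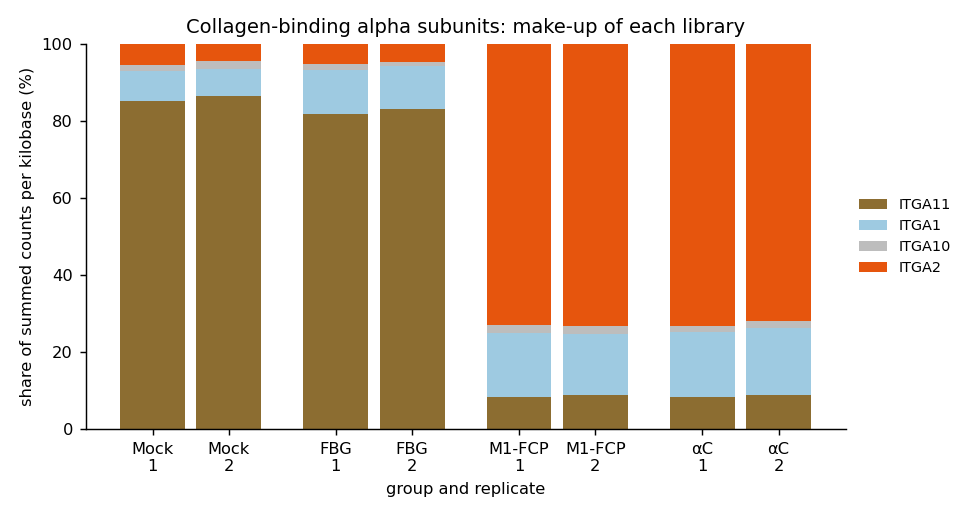
Share (vertical, %) of each collagen-binding alpha subunit in the summed counts per kilobase of the 4 genes, 1 bar for each of the 8 libraries. ITGA11 fills 81.9% to 86.4% of the Mock and FBG bars, and ITGA2 71.9% to 73.2% of the M1-FCP and αC bars.

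Among the laminin-binding members, ITGA6 and ITGB4, the partners in the hemidesmosome, both rose in M1-FCP and αC. ITGA6 (chr2:172427336-172506459, + strand) measured 61.2 and 66.0 CPM in Mock, 57.8 and 53.2 in FBG, 281 and 284 in M1-FCP and 258 and 257 in αC. Every M1-FCP and αC library stood far above every Mock and FBG library, and αC lay below M1-FCP without overlap. The log2 fold change against Mock was 2.15 ± 0.03 in M1-FCP (adjusted p = 2.03e-22), 4.44-fold, and 2.02 ± 0.03 in αC (adjusted p = 5.84e-22), 4.04-fold. In FBG, ITGA6 was lower than in Mock by a small margin (-0.20 ± 0.04, adjusted p = 0.000584), a call lost when libraries were scaled by size only (-0.08, adjusted p = 0.147).

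ITGB4 (chr17:75721459-75757818, + strand), whose long cytoplasmic tail binds plectin, measured 733 and 744 CPM in Mock, 720 and 726 in FBG, 2026 and 2002 in M1-FCP and 2016 and 1981 in αC. The M1-FCP and αC libraries overlapped each other and no other group. Against Mock it rose by 1.45 ± 0.02 in M1-FCP (adjusted p = 8.84e-07), 2.73-fold, and by 1.44 ± 0.02 in αC (adjusted p = 7.81e-07), 2.70-fold. FBG against Mock was not called (-0.03 ± 0.09, adjusted p = 0.817), with a 95% interval from -0.28 to 0.21. This interval may be too wide. Its SE of 0.09 stands beside a counting error of 0.014 and the 0.02 of the 2 other comparisons with Mock. In FBG against Mock the libraries did not overlap. That comparison was called with no filter (-0.04), with DESeq2 (-0.06) and without Mock replicate 1 (-0.05).

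ITGA3 (chr17:50056110-50090481, + strand), a laminin receptor subunit of epithelial cells, followed another pattern. It measured 1427 and 1418 CPM in Mock, 911 and 904 in FBG, 1607 and 1618 in M1-FCP and 1603 and 1623 in αC. FBG was the lowest group, and M1-FCP and αC stood slightly above Mock with no overlap. In FBG it fell by 0.65 ± 0.02 (adjusted p = 3.55e-05), to 0.638 of the Mock level. The rises in M1-FCP (0.18 ± 0.01, adjusted p = 0.000106) and αC (0.18 ± 0.01, adjusted p = 8.86e-05) were the smallest called for any member against Mock. Their size depended on scaling: with library size only they were 0.40 and 0.41.

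ITGA6 thus gained on ITGA3, the other alpha subunit for laminin among the members. Of the summed ITGA3 and ITGA6 level per kilobase, ITGA6 made up 3.51% ± 0.195 (SD, n = 2) in Mock, 4.73% ± 0.239 in FBG, 12.5% ± 0.0356 in M1-FCP and 11.5% ± 0.110 in αC. ITGB4 exceeded ITGA6 in all groups, by 10.2 ± 0.434 times in Mock, 11.5 ± 0.741 in FBG, 6.27 ± 0.104 in M1-FCP and 6.84 ± 0.0708 in αC. The ratio was lower in every M1-FCP and αC library than in every Mock and FBG library.

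**Figure D4:**
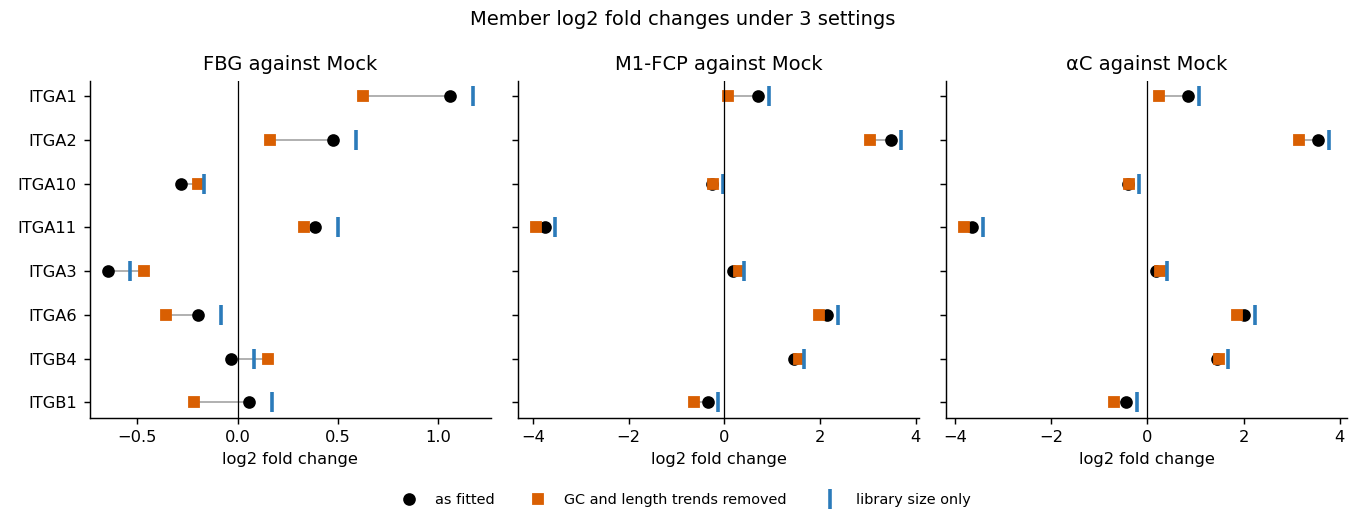
Log2 fold change against Mock (horizontal, a narrower range for FBG) of each member and of ITGB1 as fitted (circles), with trends in GC content and length removed (squares) and with library size only (bars). ITGA1 in M1-FCP moves from 0.70 to 0.08 with the trends removed, and ITGB1 in FBG from 0.06 to -0.22, while ITGA2, ITGA6, ITGA11 and ITGB4 in M1-FCP and αC keep their side of 0.

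αC and M1-FCP were compared directly. Of the 7 members 1, ITGA6, was called, where 9.01% of all genes tested were, and none reached 2-fold, where 0.399% of all genes did. ITGA6 was lower in αC by 0.14 ± 0.03 (adjusted p = 0.0025), and the call was lost without M1-FCP replicate 2 (-0.13, adjusted p = 0.0749) and without αC replicate 2 (-0.13, adjusted p = 0.0521). For the members not called, the 95% interval of the log2 difference of αC minus M1-FCP ran from -0.02 to 0.31 for ITGA1, from -0.05 to 0.21 for ITGA2, from -0.02 to 0.02 for ITGA3, from -0.004 to 0.23 for ITGA11 and from -0.04 to 0.02 for ITGB4. For ITGA10 it ran from -0.82 to 0.51. From counting error alone, which exceeds the SE there, the ITGA11 interval was wider, from -0.05 to 0.27. With trends in GC content and length removed, ITGA3 (-0.045, adjusted p = 1.99e-08) and ITGB4 (-0.075, adjusted p = 0.0365) were called lower in αC, outside these intervals.

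ITGB1 (chr10:32900318-32958230, - strand), the shared beta subunit, was lower in M1-FCP and αC. It measured 1317 and 1319 CPM in Mock, 1378 and 1368 in FBG, 1042 and 1026 in M1-FCP and 967 and 978 in αC. It fell by 0.35 ± 0.01 in M1-FCP (adjusted p = 4.28e-07) and by 0.44 ± 0.01 in αC (adjusted p = 1.51e-07), or by 0.13 and 0.21 with library size only. In FBG it was 0.06 ± 0.01 higher (adjusted p = 0.00757), a direction that turned to -0.22 with trends in GC content and length removed, and a call lost with DESeq2 size factors (0.03). CD151, the tetraspanin that binds ITGA3 and ITGA6 dimers most tightly, was lower in all 3 groups than in Mock, with log2 fold changes of -0.50 ± 0.04 in FBG, -0.48 ± 0.04 in M1-FCP and -0.45 ± 0.04 in αC. CD9, another tetraspanin associate, was -0.61 ± 0.03, -0.47 ± 0.03 and -0.48 ± 0.03 in the same order. Over all genes tested, 26.3% were lower than Mock in FBG, 36.1% in M1-FCP and 36.7% in αC. Of the 5 genes of the partner and tetraspanin list, 4 were lower and 1 higher in each comparison with Mock. The higher one was ITGB1 in FBG and CD82 in M1-FCP (1.02) and αC (1.31), and CD82, like the other list genes outside the 3 most abundant, is named after its values were seen.

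The hemidesmosome partners of ITGA6 and ITGB4 were higher in M1-FCP and αC for 3 of 3 genes. The background of all genes called higher was 37.3% in M1-FCP and 38% in αC. COL17A1, the transmembrane collagen of the hemidesmosome, went from 0.40 ± 0.0939 CPM (SD, n = 2) in Mock and 1.01 ± 0.381 in FBG to 71.8 ± 2.68 in M1-FCP and 71.3 ± 0.123 in αC. Its log2 fold change was 7.47 ± 0.13 in M1-FCP and 7.46 ± 0.13 in αC, from 12 counts summed over the Mock libraries, for which the counting error alone is 0.42 in each. DST, whose epithelial isoform links ITGB4 to keratin (isoforms are not resolved in these counts), rose by 3.10 ± 0.03 and 3.37 ± 0.03 (counting error 0.05 in each). PLEC, which encodes plectin, rose by 1.31 (counting error 0.0064) and 1.39 (counting error 0.0063). In FBG, DST (1.42 ± 0.04) and COL17A1 (1.32 ± 0.27) rose and PLEC fell (-0.17). In M1-FCP and αC these genes, like ITGA6 and ITGB4, were higher together with the summed epithelial markers given above. In FBG that sum, mostly KRT8 and KRT18, was below Mock, while 6 of the 11 tested epithelial markers were called higher and 3 lower.

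The laminin chains, the ligands of ITGA3 and ITGA6, were split. Of 12 genes 10 were tested, and in both M1-FCP and αC 5 were higher and 5 lower than in Mock. Backgrounds over all genes were 37.3% higher and 36.1% lower in M1-FCP, 38% and 36.7% in αC, and 24.2% and 26.3% in FBG. LAMB3 and LAMA3 encode chains of a laminin of the epithelial basement membrane. LAMB3 rose by 8.95 ± 0.06 in M1-FCP and 9.31 ± 0.06 in αC, and LAMA3 by 4.29 ± 0.11 and 4.72 ± 0.11. LAMB3 had 26 counts summed over the Mock libraries, for which the counting error alone is 0.28 in each comparison. LAMA5 rose by 0.48 ± 0.02 and 0.62 ± 0.01, and LAMB2 was also higher in both. LAMB1, the most abundant chain per length in Mock and FBG, fell by 0.37 ± 0.02 and 0.36 ± 0.02. LAMC1 fell by 0.24 ± 0.02 and 0.28 ± 0.02, a change not called with library size only in M1-FCP (-0.02). LAMA1, LAMA2 and LAMA4 were the other 3 lower chains, LAMA2 in αC not with library size only (-0.19). In FBG, LAMB1, LAMB2 and LAMB3 were higher (LAMB2 not with DESeq2 size factors, at 0.08), LAMA1, LAMA5 and LAMC1 lower, and LAMA3 (-0.12 ± 0.20) was not called. That split of 3 higher and 3 lower was 5 and 3 with library size only. The list medians were 0.08 in FBG, -0.05 in M1-FCP and -0.01 in αC.

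Collagen chains, the ligands of the other 4 alpha subunits, were more often lower than higher at 2-fold. Of 22 genes 16 were tested, with 6 higher and 9 lower in M1-FCP, 6 higher and 7 lower in αC (8 and 7 with library size only), and 4 higher (COL4A1, COL4A2, COL5A3 and COL6A1) and 7 lower in FBG, or 7 and 6 there with library size only. At 2-fold or more 1, COL5A3, was higher and 7 were lower in both M1-FCP and αC. The background at 2-fold was 19.7% higher and 8.85% lower in M1-FCP, and 20.7% and 8.96% in αC. Without the fold rule it was 37.3% and 36.1% in M1-FCP, 38% and 36.7% in αC, and 24.2% and 26.3% in FBG. COL1A1, the main chain of type I collagen and the most abundant of the list per length in Mock and FBG, fell from 2153 ± 17.0 CPM (SD, n = 2) in Mock to 1087 ± 2.77 in FBG, 173 ± 0.0716 in M1-FCP and 184 ± 1.9 in αC. Its log2 fold changes were -0.99 ± 0.01, -3.64 ± 0.02 and -3.55 ± 0.02. COL4A2, a basement membrane collagen chain, was 0.11 ± 0.02, 0.40 ± 0.02 and 0.32 ± 0.02 higher, and COL6A1 0.07 ± 0.03, 0.12 ± 0.03 and 0.14 ± 0.03 higher, in the order FBG, M1-FCP and αC, the first for COL6A1 not called with DESeq2 size factors (0.05). COL1A1 is also in the mesenchymal marker list.

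**Figure D5:**
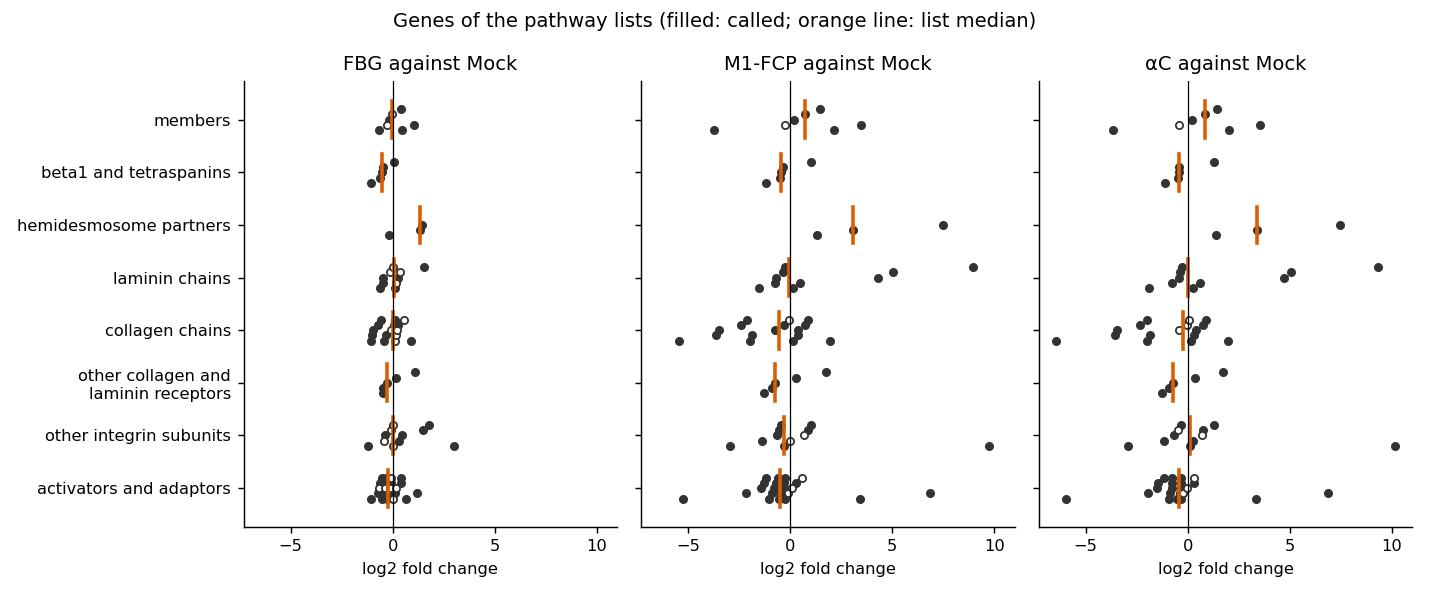
Log2 fold change against Mock (horizontal) of each tested gene in 8 gene lists (rows) for FBG, M1-FCP and αC, with called genes filled, others open, and the list median as an orange line. In M1-FCP the medians run from -0.72 for other collagen and laminin receptors to 3.10 for the hemidesmosome partners.

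Receptors for the same ligands outside the integrin family were mixed. Of 8 genes 5 were tested, and all were called in each comparison with Mock, 2 higher and 3 lower. Over all genes tested, 50.4% were called in FBG, 73.4% in M1-FCP and 74.7% in αC. DAG1, the dystroglycan precursor and a laminin receptor, fell by 1.26 ± 0.02 in M1-FCP and by 1.27 ± 0.02 in αC. BCAM, a laminin receptor of the immunoglobulin family, was 0.26 ± 0.03 and 0.35 ± 0.03 higher. RPSA, a ribosomal protein also described as a laminin receptor, was -0.72 ± 0.01 and -0.74 ± 0.01, and its many pseudogenes make its counts uncertain. SDC1 was the other higher gene and DDR2 the other lower one. In FBG, DAG1 (-0.28 ± 0.02), BCAM (-0.47 ± 0.03) and RPSA (-0.46 ± 0.01) were lower, and SDC1 and DDR2 higher.

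The remaining integrin subunits gave no single direction. Backgrounds over all genes, higher and lower, were 24.2% and 26.3% in FBG, 37.3% and 36.1% in M1-FCP, and 38% and 36.7% in αC. Of 18 genes 11 were tested: 5 were higher and 2 lower in FBG, 3 higher and 6 lower in M1-FCP, and 5 higher and 4 lower in αC. With library size only the split was 5 higher and 4 lower in M1-FCP and 6 and 3 in αC, and with trends in GC content and length removed it was 5 and 5 in M1-FCP. ITGAV, the alpha subunit of vitronectin and fibronectin receptors, rose by 0.44 ± 0.04 in FBG, 1.04 ± 0.04 in M1-FCP and 1.26 ± 0.04 in αC, the first not called with trends in GC content and length removed (0.06). ITGA4 and ITGB6 were also higher in all 3, ITGB2 and ITGB3 in FBG, and ITGB8 in αC (0.26, but -0.33 with the same trends removed). ITGB6 in FBG rests on 17 counts summed over its libraries, beside 2 in Mock. In M1-FCP and αC its summed counts were 2894 and 3986, at 63.1 and 84.2 CPM on average. ITGB8 was lower in M1-FCP (-0.45), a call lost with library size only (-0.23). ITGA7, a laminin-binding subunit outside the 7 members, was lower in all 3. Its mean level was 25.7 CPM in Mock, 11.3 in FBG, 3.38 in M1-FCP and 3.40 in αC. ITGAE and ITGB3 were lower in M1-FCP and αC. ITGB5, a partner of ITGAV, was 0.04 ± 0.04 in FBG, not called, and fell by 0.31 ± 0.04 in M1-FCP and 0.31 ± 0.04 in αC, the last not called with library size only (-0.08). ITGA5, the fibronectin receptor subunit, was -0.38 ± 0.04 in FBG, -0.03 ± 0.04 in M1-FCP, not called, and 0.10 ± 0.04 in αC.

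Activators and adaptors at the cytoplasmic side of integrins were mostly lower. All 22 were tested, with 16 lower and 3 higher in M1-FCP and the same numbers in αC. In FBG 11 were lower and 5 higher (FERMT2, LIMS1, LIMS2, VCL and TNS4). Backgrounds over all genes were 36.1% lower and 37.3% higher in M1-FCP, 36.7% and 38% in αC, and 26.3% and 24.2% in FBG. TLN1, which encodes the talin that binds beta subunit tails, fell by 0.32 ± 0.02 in FBG, 0.31 ± 0.02 in M1-FCP and 0.34 ± 0.02 in αC. FERMT2, a widely expressed kindlin, was 0.39 ± 0.02 higher in FBG and fell by 1.43 ± 0.03 in M1-FCP and 1.51 ± 0.03 in αC. TNS4, an epithelial tensin, rose by 1.22 ± 0.10, 6.86 ± 0.04 and 6.89 ± 0.04 in that order, from 5.46 ± 0.569 CPM (SD, n = 2) in Mock, with counting errors of 0.13, 0.11 and 0.11. FERMT1, the epithelial kindlin, and PXN were the other 2 higher in M1-FCP and αC. List medians were -0.23 in FBG, -0.51 in M1-FCP and -0.45 in αC.

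Over all 8 libraries, the genes whose pattern was nearest to each member were found by the distance between log2 CPM values centred on each gene's mean, among 11743 genes with at least 50 counts on average. For ITGA2 these were FHOD3 (distance 0.17), RBM47 (0.23) and AP1M2 (0.31). ITGA11 was nearest to NPR3 (0.26), P3H2 (0.26) and PCDH19 (0.30), and ITGA6 to FSCN1 (0.21), ANXA1 (0.25) and LRATD2 (0.30). ITGB4 was nearest to ITPR3, F11R and CMTM4 (each 0.15). ITGA1 was nearest to CDC42BPA (0.21), CLSPN (0.22) and TRIM23 (0.23), and ITGA3 to LITAF (0.11), GM2A (0.14) and ME1 (0.15). Many genes were alike: 3733 of the 11743 had an absolute Pearson correlation above 0.95 with ITGA2. For ITGB4, ITGA11 and ITGA6 the numbers were 3192, 2787 and 2743, and for ITGA3 and ITGA1 374 and 296. These libraries fall into 4 groups of 2, so such likeness describes few independent points.

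Neighbouring genes on the chromosome were set beside the members. Within 1 Mb on each side of ITGA2, 6 other genes were tested, ITGA1 among them, and their log2 fold changes in M1-FCP against Mock ran from -0.49 to 0.70 with a median of -0.12. For ITGA11, 17 neighbours ran from -1.62 to 2.15 with a median of 0.09. None of these neighbours reached the value of ITGA2 or ITGA11, in M1-FCP or in αC. Among 11 neighbours of ITGA6, 1 in M1-FCP and 2 in αC were at or beyond its value, and among 66 of ITGB4, 12 in each.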

How the data were processed

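The authors deposited raw read-pair counts per gene for 8 libraries, 50006 genes each, which featureCounts 1.6.0 made from exons grouped by gene for paired reads and without strand, per the file headers. The submitters' processing notes list featureCounts 1.6.2, Trimmomatic 0.39, HISAT2 2.2.1 and SAMtools 1.9 with GRCh38.p14. Without strand, reads of overlapping antisense genes cannot be told apart. No member has a copy on an alternate locus, and the exonic bases that members share with other genes range from 0% (ITGA2, ITGA3, ITGA10, ITGA11, ITGB4) to 5.49% (ITGA1).

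Counts were tested with edgeR 4.0.16 in R 4.3.3 (TMM scaling, filterByExpr by group, robust quasi-likelihood) in 1 fit of all 8 libraries, with 4 residual degrees of freedom, 6 comparisons and Benjamini-Hochberg adjustment over the 16307 genes kept. SE is the absolute log2 fold change over the square root of F. The counting error comes from summed counts and exceeds the SE for ITGA1 against Mock, for ITGA2 and ITGA6 against Mock and FBG, for ITGA11 in all comparisons but FBG against Mock (0.0632 beside 0.0421 in M1-FCP against Mock), and for several list genes, such as LAMB3 and COL17A1. The SE may then be too small. The script was tested on simulated counts in which 200 genes changed. Many more genes were called against Mock here, so that run does not test the scaling or error rate of these comparisons. TPM used the deposited exonic lengths and served only to compare genes within a group. GC content came from GENCODE transcripts, with a value for 87.8% of genes tested.

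The members and gene lists were chosen with earlier results of these data known. Named genes are all members, the 3 most abundant per length of each list except the marker lists, and ITGB1, CD151, LAMA3, LAMB3 and COL17A1. Marker genes and some other list genes were named outside this rule. Some list genes are not reported here. The 2 libraries of a group differed by 1.28 to 1.39 times the counting variance. Alternatives were library size or DESeq2 1.42.0 size factors as scaling, no filter, DESeq2's Wald test, no robust estimation, only the groups compared, a replicate block, GC content and length trends removed, and each library left out.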

Additional observations from a re-analysis of the deposited data

How the results depend on the processing

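Over 17 alternatives each, the log2 fold changes of the 7 members and ITGB1 kept their call in all cases for M1-FCP against FBG and for αC against Mock, and their direction too except for ITGA10 in M1-FCP against FBG, which was not called and ran from -0.31 to 0.45. ITGA2, ITGA6, ITGA11 and ITGB4 kept both in the 4 comparisons of M1-FCP or αC with Mock or FBG: against Mock in M1-FCP, ITGA2 ranged from 3.04 to 3.69, ITGA6 from 1.97 to 2.37, ITGA11 from -3.94 to -3.53 and ITGB4 from 1.42 to 1.67. Removing trends in GC content and length left 0 members at 2-fold in FBG against Mock (1 as fitted), with and without the replicate block, and gave 3 members called in αC against M1-FCP (1 as fitted), again with and without the block. In the same setting ITGB1 in FBG against Mock turned to -0.22 and ITGA3 in αC against M1-FCP to -0.045, where ITGB4 (-0.075) was called too, with and without the block, and the cause was not tested. Genes called in αC against M1-FCP numbered 1470 as fitted and 877 with DESeq2's Wald test. Leaving out 1 library gave 853 to 1615, with 853 without M1-FCP replicate 2, 864 without M1-FCP replicate 1, 867 without αC replicate 2 and 909 without αC replicate 1, which leave fewer samples. Members called in that comparison ranged from 0 to 1 with 1 library left out, with ITGA6 lost without M1-FCP replicate 2 and without αC replicate 2. Members at 2-fold in FBG against Mock stayed at 1 with each library left out. A left-out library leaves its group with 1 sample, assumed to vary like the other groups.

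Libraries of equal replicate number showed no clear shared deviation (correlation of deviations -0.0598 to 0.0859 over pairs of groups). That cannot settle whether they shared a culture or day, since pairs differed by only 1.28 to 1.39 times the counting variance. The replicate block gave 5 members called in FBG against Mock, 6 in M1-FCP and 6 in αC. These were the numbers found without the block, which changed no member's call. With library size only, the median log2 fold change of all genes moved from 0.02 to 0.13 in FBG, from 0.06 to 0.28 in M1-FCP and from 0.06 to 0.29 in αC, and the genes called went from 3941 higher and 4285 lower to 5183 and 3013 in FBG, from 6085 and 5885 to 7673 and 4498 in M1-FCP, and from 6199 and 5984 to 7778 and 4493 in αC. The members called in FBG against Mock were then 3 higher and 1 lower, and in αC against FBG 4 higher and 1 lower, beside 4 and 2 as fitted. Counts for the gene lists under other scalings were chosen after seeing the data. At 13 to 29 counts per library, depth limits what can be said of ITGA10, whose log2 fold change in FBG against Mock ran from -0.71 to 0.05 over the alternatives.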
